A study of Mus musculus with 12 samples.

Results

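The 7 genes described here are used in the ciliary body and iris, the muscular and secretory rim in front of the neural retina, and were followed in RNA from whole mouse retinas after conditional deletion of Otx2. They were chosen by name as Zic1, Zic2, Zic4, Msx1, Msx2, Aqp1 and Car12, and all 7 were found by Ensembl identifier among the 54146 genes counted. All 7 passed edgeR's filter on low counts, as did 18628 genes in all. The mice were of the 129/SV background. The cKO mice carried Otx2 flox/flox alleles with Crx-CreERT2, a Cre recombinase driven by the photoreceptor gene Crx and active after tamoxifen, so the labelled site of deletion is the photoreceptor and not the ciliary body or iris. The 3 P30 control mice (numbered 1 to 3, labelled as Control_Crx, with genotype given as control only) were compared with 3 cKO mice per later age, namely mice 4 to 6 at P32, mice 7 to 9 at P34 and mice 10 to 12 at P38, killed 2, 4 and 8 d after tamoxifen given at P30. Each mouse gave 1 library. The controls were also the youngest mice, so age, tamoxifen and deletion cannot be told apart between P30 and the later ages, while P32, P34 and P38 mice carried the same alleles and treatment.

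The ciliary body secretes aqueous humor through a bilayered epithelium that continues the retina and its pigment epithelium, and the iris continues that bilayer forward. Zic genes encode zinc-finger transcription factors, and Msx genes encode homeodomain transcription factors downstream of BMP signals that pattern the rim of the optic cup. Aqp1 encodes a water channel and Car12 a membrane-bound carbonic anhydrase, both part of fluid secretion by the ciliary epithelium. Aqp1 is also known from amacrine cells of the rodent retina, so these genes are not all restricted to the rim of the eye.

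The 3 Zic genes fell at P34, and Zic4 alone of them was called higher again at P38. Against P30, mean levels at P34 were 38.9% for Zic1, 33.1% for Zic2 and 8.88% for Zic4. Msx1 and Msx2 were nearly undetected in each P34 mouse, with 0 to 3 reads, but they varied widely among the other mice, and neither was called at P34 in the fit of 12 mice with 1 mean per age. Under other settings edgeR called both without a filter (0.865% of all genes called lower) or with only P30 and P34 fitted (1.27%), Msx1 alone with Xist as a covariate (0.762%) and Msx2 alone without P32 mouse 6 (1.11%). Aqp1 and Car12 were called in none of the comparisons made.

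Libraries held 29701483 to 60145034 counts on genes, at which 3 counts are worth 0.0473 to 0.102 CPM (counts relative to the library's total, scaled by edgeR's TMM method). Otx2 itself read 293 to 377 CPM in the 12 mice and was called in none of the 7 pairwise comparisons made. Its gene counts thus gave no check of the deletion, and the paper states that recombination leaves Otx2 transcript levels unaffected. The paper instead compared reads on the deleted exon with those on a neighboring exon, and reports a lower ratio in cKO mice. Amacrine cell markers (6 genes) summed to 767 to 1200 CPM in all mice, as the label of retina requires. Lens markers (8 genes, led by crystallins) were also present, at sums of 240 to 38200 CPM, and were at most 669 CPM in P30 mouse 2, P32 mouse 6 and all 3 P34 mice. Xist was above 100 CPM in 3 of 3 P30 mice, 2 of 3 P32 mice, 1 of 3 P34 mice and 1 of 3 P38 mice, so sex differed between groups as well.

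Levels between genes were compared as CPM per kb of exon at P30. Aqp1 was the most abundant at 63.7 ± 6.51 (SD, n = 3), above 97.6% of 18614 tested genes. Zic1 followed at 3.31 ± 0.457, above 48.4% of them, and Zic2 at 1.65 ± 0.271, above 36.6%. Car12 at 0.648 ± 0.406 and Zic4 at 0.446 ± 0.0849 overlapped in their ranges over mice. Msx1 at 0.305 ± 0.196 and Msx2 at 0.295 ± 0.192 were the lowest, did not differ beyond their spread and overlapped with Car12 and Zic4. The per-length order thus ran from the water channel to the 2 homeodomain factors.

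Zic1 (ENSMUSG00000032368) lies on chromosome 9, at 91358058 to 91365810 of GRCm38 on the minus strand, and Zic4 (ENSMUSG00000036972) lies beside it on the plus strand at 91362413 to 91389348. The 2 genes overlap by 3398 bases, of which 60 are exonic in both, and their RefSeq starts are 3204 bases apart. Zic2 (ENSMUSG00000061524) is on chromosome 14 at 122475435 to 122479852, and Zic5 lies 9758 bases from it. Msx1 (ENSMUSG00000048450) is on chromosome 5 at 37820485 to 37824583 and Msx2 (ENSMUSG00000021469) on chromosome 13 at 53466884 to 53473074. Aqp1 (ENSMUSG00000004655) is on chromosome 6 at 55336432 to 55348555, and Car12 (ENSMUSG00000032373) on chromosome 9 at 66713686 to 66766845. The strand option of the authors' counting is not given in the sources used here, so reads on the exonic overlap of Zic1 and Zic4 cannot be assigned with certainty.

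For the Zic1 and Zic4 pair, which share a locus, and the Msx pair, which had the fewest reads at P34, the 250 bases before their RefSeq starts (GRCm38.p6) are shown, written 5′ to 3′ on the gene's strand. They are chr9:91365769-91366018 (minus strand) for Zic1, chr9:91368722-91368971 (plus strand) for Zic4, chr5:37824586-37824835 (minus strand) for Msx1 and chr13:53472781-53473030 (minus strand) for Msx2. The Zic4 window lies inside the gene span given above, so it describes that RefSeq start only and not the outer end of the gene. Capitals mark CCAAT, the CCAAT box bound by NF-Y, or ATTGG, the same box on the other strand.
Zic1: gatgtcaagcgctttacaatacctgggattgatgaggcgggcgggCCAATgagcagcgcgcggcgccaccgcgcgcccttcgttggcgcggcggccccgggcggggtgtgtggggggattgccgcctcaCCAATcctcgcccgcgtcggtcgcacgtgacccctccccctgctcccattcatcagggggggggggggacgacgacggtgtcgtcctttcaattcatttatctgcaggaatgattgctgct
Zic4: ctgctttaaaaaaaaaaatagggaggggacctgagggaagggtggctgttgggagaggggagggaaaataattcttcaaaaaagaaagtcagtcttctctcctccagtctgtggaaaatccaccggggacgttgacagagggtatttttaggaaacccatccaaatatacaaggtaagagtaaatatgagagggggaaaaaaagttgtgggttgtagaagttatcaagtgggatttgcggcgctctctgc
Msx1: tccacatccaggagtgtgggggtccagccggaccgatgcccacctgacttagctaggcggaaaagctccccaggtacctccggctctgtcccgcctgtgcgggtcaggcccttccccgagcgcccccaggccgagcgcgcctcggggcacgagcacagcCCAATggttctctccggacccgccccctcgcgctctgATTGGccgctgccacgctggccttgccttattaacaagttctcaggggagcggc
Msx2: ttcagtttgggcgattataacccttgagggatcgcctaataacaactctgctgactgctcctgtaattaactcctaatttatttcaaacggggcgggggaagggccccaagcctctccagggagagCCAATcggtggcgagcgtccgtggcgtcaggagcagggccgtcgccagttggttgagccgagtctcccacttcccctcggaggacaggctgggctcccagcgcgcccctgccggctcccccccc
Zic1 held 2 boxes, 205 and 121 bases before its start, Msx1 held 2, at 91 and 54 bases, and Msx2 held 1, at 124 bases. Zic4, Aqp1 and Car12 held none, against 33.85% of the 32851 upstream windows in the RefSeq table with at least 1 box. TAATCC or its complement GGATTA, the letters read by homeodomains of the OTX and CRX kind, were in 0 of the 6 promoter windows given for these genes (300 bases, 50 of them after the start), and in 7.06% of all windows. These counts describe letters in short windows and say nothing of binding.

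Zic1 read 16.5, 21.6 and 18.4 CPM in P30 mice 1 to 3, 14.4, 13.9 and 9.88 in P32 mice 4 to 6, 8.06, 5.46 and 8.46 in P34 mice 7 to 9, and 16.4, 12.9 and 9.81 in P38 mice 10 to 12. Each cKO mouse was below each control, and each P34 mouse was below each mouse of another age. At P34 the log2 fold change was -1.36 ± 0.228 (SE), a 2.57-fold lower level, and it passed the test (edgeR quasi-likelihood test, Benjamini-Hochberg adjusted p = 0.0184). Genes were called where this p was 0.05 or less and the change 0.5 or more on the log2 scale.

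Zic2, which in the embryo also specifies the retinal axons that do not cross at the chiasm, read 4.40, 5.63 and 4.19 CPM at P30, 3.12, 4.01 and 2.22 at P32, with 2.07, 1.18 and 1.46 in the P34 mice and 4.03, 3.96 and 2.78 in the P38 mice. As for Zic1, no cKO mouse reached the lowest control, and the P34 mice were the lowest of the 12. Without TMM scaling, however, P32 mouse 5 was at 4.16 CPM of Zic2, above P30 mouse 3 at 4.00. At P34 Zic2 fell by 1.60 ± 0.281 on the log2 scale, 3.02-fold (edgeR, Benjamini-Hochberg adjusted p = 0.0233).

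Zic4 had the largest called change of the 7. It read 3.82, 5.55 and 4.46 CPM at P30, 4.23, 4.14 and 1.68 at P32, with 0.442, 0.245 and 0.542 in the P34 mice and 1.97, 4.06 and 2.95 in the P38 mice. With 10 to 16 reads each, the P34 mice stood clear of the other 9, among which P32 mice 4 and 5 and P38 mouse 11 were within the control range. At P34 the log2 fold change was -3.51 ± 0.436, 11.4-fold lower (edgeR, Benjamini-Hochberg adjusted p = 0.00271). Without any 1 of the 12 mice this call held, at adjusted p of 0.000436 to 0.0280.

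The calls of Zic1 and Zic2 at P34 depended on more mice. Both were lost without P30 mouse 2 or 3 or P34 mouse 8 or 9, and that of Zic1 also without P34 mouse 7, at edgeR adjusted p of up to 0.106 for Zic1 and 0.145 for Zic2. The log2 fold changes with 1 mouse left out stayed between -1.49 and -1.19 for Zic1 and between -1.86 and -1.42 for Zic2.

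Msx1 read 0.899, 0.363 and 1.57 CPM at P30, 2.07, 1.42 and 0.197 at P32, then 0.0828, 0.0245 and 0.0339 in P34 mice and 1.94, 1.64 and 0.204 in P38 mice. In reads, the P34 mice had 3, 1 and 1, while the other mice had 6 to 80. P32 mouse 6 and P38 mouse 12 were low as well, at 8 and 6 reads, and the highest mice of P32 and P38 exceeded all controls. From 128 reads over the P30 mice and 5 over the P34 mice, the ratio of levels, scaled to library totals times TMM factors, was 18.6 (95% exact interval 7.77 to 58.3, which covers counting error only). The log2 fold change was -4.22 ± 1.16 and did not pass (edgeR, Benjamini-Hochberg adjusted p = 0.210). With Xist as a covariate it was -5.79 and passed.

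Msx2 behaved alike. It read 1.26, 0.242 and 1.40 CPM at P30, 3.06, 1.40 and 0.0739 at P32, but 0, 0.0245 and 0.0339 in P34 mice and 1.84, 0.657 and 0.339 in P38 mice. The P34 mice had 0, 1 and 1 reads and the P30 mice 139 in all, which after the same scaling gave a ratio of levels of 50.5 (counting interval 13.7 to 421). Its log2 fold change of -5.46 ± 1.53 did not pass (edgeR, Benjamini-Hochberg adjusted p = 0.223), with P30 mouse 2 at 12 reads and P32 mouse 6 at 3. The coefficient of variation over mice was 64.2% at P30 for Msx1 and 65.3% for Msx2, against 13.8% for Zic1. DESeq2's Wald test on the same counts called both Msx genes at P34.

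Aqp1 read 187, 157 and 158 CPM at P30, 120, 190 and 170 at P32, with 129, 128 and 142 in the P34 mice and 243, 176 and 146 in the P38 mice. The P34 mice were all below the controls, but by 1.26-fold in the fit and with P32 mouse 4 lower still (log2 fold change -0.33 ± 0.192, edgeR, Benjamini-Hochberg adjusted p = 0.579). Car12 read 3.67, 2.67 and 8.44 CPM at P30, 2.85, 5.22 and 2.54 at P32, with 7.43, 4.63 and 4.30 in the P34 mice and 6.79, 5.56 and 3.77 in the P38 mice. All 4 ages overlapped, and its log2 fold change at P34 was 0.16 ± 0.424 (edgeR, Benjamini-Hochberg adjusted p = 0.936).

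**Figure D1:**
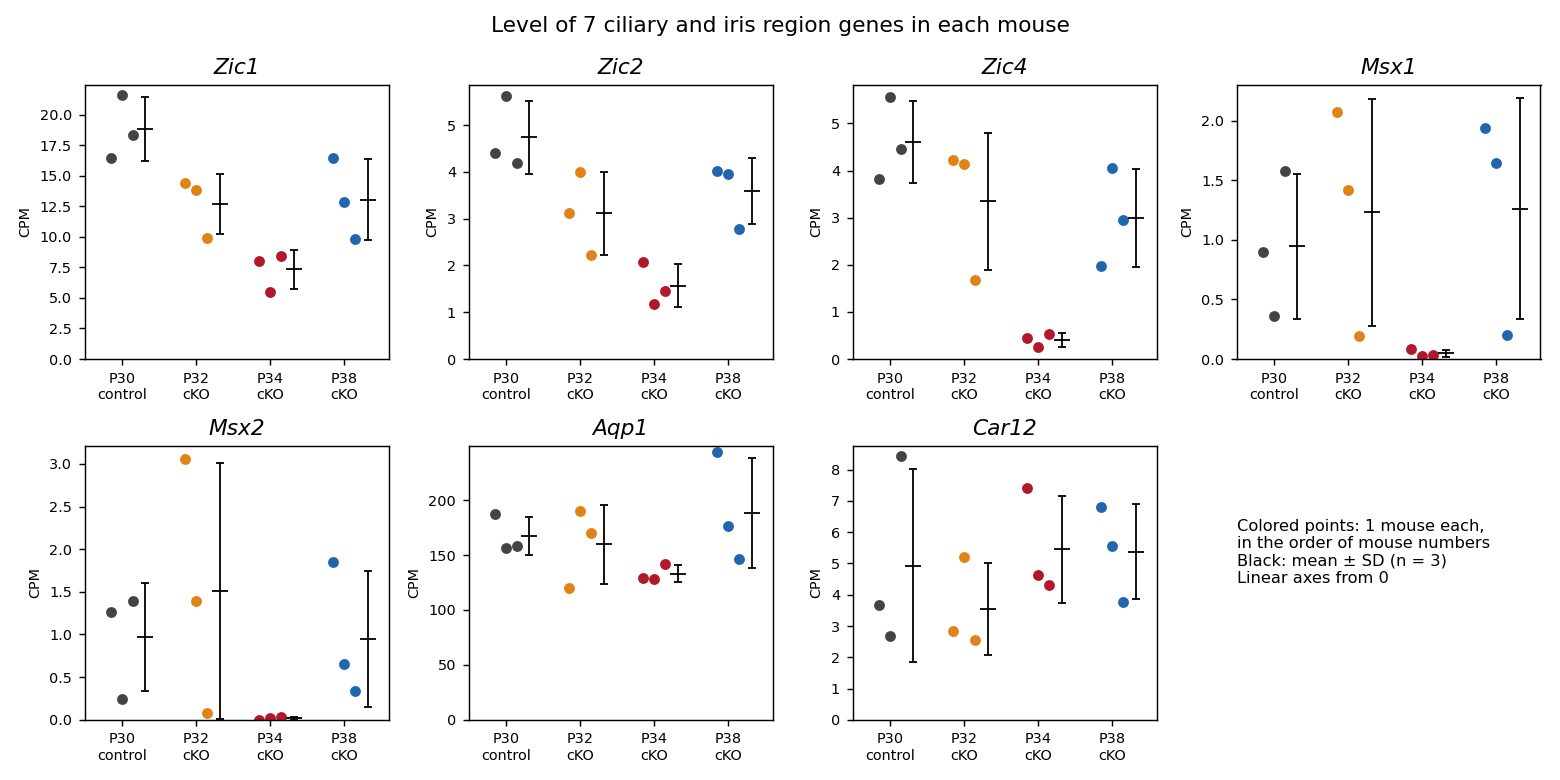
Level of each gene in CPM (linear axes from 0) by age, with 1 colored point per mouse and the mean ± SD (n = 3) in black. Zic1, Zic2 and Zic4 were lowest in the 3 P34 mice (8.46, 2.07 and 0.542 CPM at most), and Msx1 and Msx2 were close to 0 there. At P34 Aqp1 overlapped in range with P32 only, and Car12 with every other age.

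At P34, then, 3 of the 7 genes were called lower than at P30, where 0.66% of all genes tested were, and 0 were called higher, as for all genes (0%). At an unadjusted p of at most 0.05 the count was 5 (Msx1 and Msx2 added), with 5.42% of all genes, and 0 were higher, with 0.854%. For 6 of the 7, all but Car12, every P34 mouse was below every control, as for 9.67% of all genes. DESeq2 called 5 lower, and 1.9% of all genes.

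At P32, 2 d after tamoxifen, 0 of 7 genes were called lower by edgeR, and 0% of all genes were, nor was any called higher (0%). Zic1 and Zic2 alone passed at an unadjusted p (1.77% of all genes lower, 1.13% higher). They alone had all cKO mice below all controls (4.39% of all genes), Zic2 only with TMM scaling. Their log2 fold changes were -0.57 ± 0.223 and -0.61 ± 0.270 (edgeR, Benjamini-Hochberg adjusted p = 0.698 for both). Zic4 stood at -0.46 ± 0.371, Msx1 at 0.39 ± 0.799, Msx2 at 0.64 ± 0.914, Aqp1 at -0.06 ± 0.191 and Car12 at -0.47 ± 0.428. DESeq2 called 0 of the 7 (0.0913% of all genes lower, 0.043% higher).

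At P38, 8 d after tamoxifen, 0 of 7 were called lower by edgeR (0% of all genes) and 0 higher (0%), and DESeq2 called 0 (0.183% lower, 0.0591% higher). Zic1 alone passed at an unadjusted p, at a log2 fold change of -0.53 ± 0.223 (2.66% of all genes lower, 0.805% higher). Zic1 and Zic2 again had all 3 cKO mice below the controls, as did 7.96% of genes. Zic2 stood at -0.40 ± 0.269 and Zic4 at -0.62 ± 0.372. The other 4 lay between -0.0014 for Msx2 and 0.46 for Msx1, with standard errors of 0.191 to 0.973, and with Xist as a covariate Msx2 stood at -1.48 and Msx1 at -1.21. Mean levels were 69.3% of P30 for Zic1, 75.8% for Zic2 and 64.9% for Zic4.

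The cKO ages were also compared with each other, in the same fit of 12 mice, so that the controls entered the estimate of the spread but not the means compared. From P32 to P34, Zic4 fell by 3.04 ± 0.434 on the log2 scale, 8.24-fold (edgeR, Benjamini-Hochberg adjusted p = 0.0114). It was the only 1 of the 7 called lower (0.242% of all genes), while 5 passed unadjusted (8.93%) and 5 had all P34 mice below all P32 mice (13.6%), namely the Zic and Msx genes. Zic1 stood at -0.80 ± 0.227, Zic2 at -0.99 ± 0.280, Msx1 at -4.61 ± 1.15 and Msx2 at -6.10 ± 1.51, each with an edgeR adjusted p of 0.0948 or 0.0949. P32 mouse 6 was the lowest P32 mouse in all 5 genes, and without it edgeR called all 5, with 6.87% of all genes called lower. DESeq2 called the same 5 with all mice, and 5.13% of all genes. Without a filter edgeR called Zic4 and both Msx genes, and 1.25% of all genes, and with Xist as a covariate Zic4 and Msx1, and 0.467%. The Zic4 call was lost without any 1 of the P34 mice, and when only the P32 and P34 mice were fitted edgeR called 0 of the 7, with Zic4 at an adjusted p of 0.123 and 0.062% of all genes called lower.

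From P34 to P38, Zic4 rose by 2.88 ± 0.434 on the log2 scale, 7.38-fold (edgeR, Benjamini-Hochberg adjusted p = 0.0195), the 1 gene of the 7 called higher (0.199% of all genes). Of the 7, 6 passed unadjusted (3.01%), and in the same 6 every P38 mouse exceeded every P34 mouse (5.36%), with Car12 the exception. Zic1 stood at 0.84 ± 0.227, Zic2 at 1.20 ± 0.280, Aqp1 at 0.50 ± 0.192, Msx1 at 4.68 ± 1.15 and Msx2 at 5.46 ± 1.54. With the same scaling, from 156 reads against 5, the ratio of P38 to P34 was 29.4 for Msx1 (counting interval 12.3 to 91.7), and from 114 against 2 it was 53.6 for Msx2 (14.5 to 448). DESeq2 called 4 higher (the Msx genes, Zic2 and Zic4), and 0.736% of all genes. Without a filter edgeR called Zic4 and both Msx genes, and 0.33% of all genes, and with only the P34 and P38 mice fitted Zic4 alone, and 0.396%. In the fit of 12 mice the Zic4 call was lost without P38 mouse 11 or any 1 of the P34 mice, at edgeR adjusted p of up to 0.160. The P34 mice thus enter each called comparison.

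No difference between P38 and P32 passed for these genes. Of the 7, edgeR called 0 lower (0% of all genes) and 0 higher (0%). Unadjusted, 0 passed in either direction (6.23% of all genes lower, 5.68% higher), and DESeq2 called 0 (2.65% lower, 3.4% higher). Without P32 mouse 6, edgeR still called 0 of the 7, but over all genes it called 704 lower and 1242 higher. In a single test over the 4 ages, Zic4 alone was called by edgeR (Benjamini-Hochberg adjusted p = 0.0225, with 0.344% of all genes called) and 5 passed unadjusted (17.2%). With the 9 cKO mice as 1 group against P30, edgeR called 0 of 7 (0.0537% of all genes lower) and DESeq2 0 (0.226% lower, 0.0215% higher). Zic1 and Zic2 passed unadjusted (1.57%), at log2 fold changes of -0.77 ± 0.254 and -0.78 ± 0.326. Both had all 9 cKO mice below the 3 controls (0.478%), Zic2 only with TMM scaling.

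**Figure D2:**
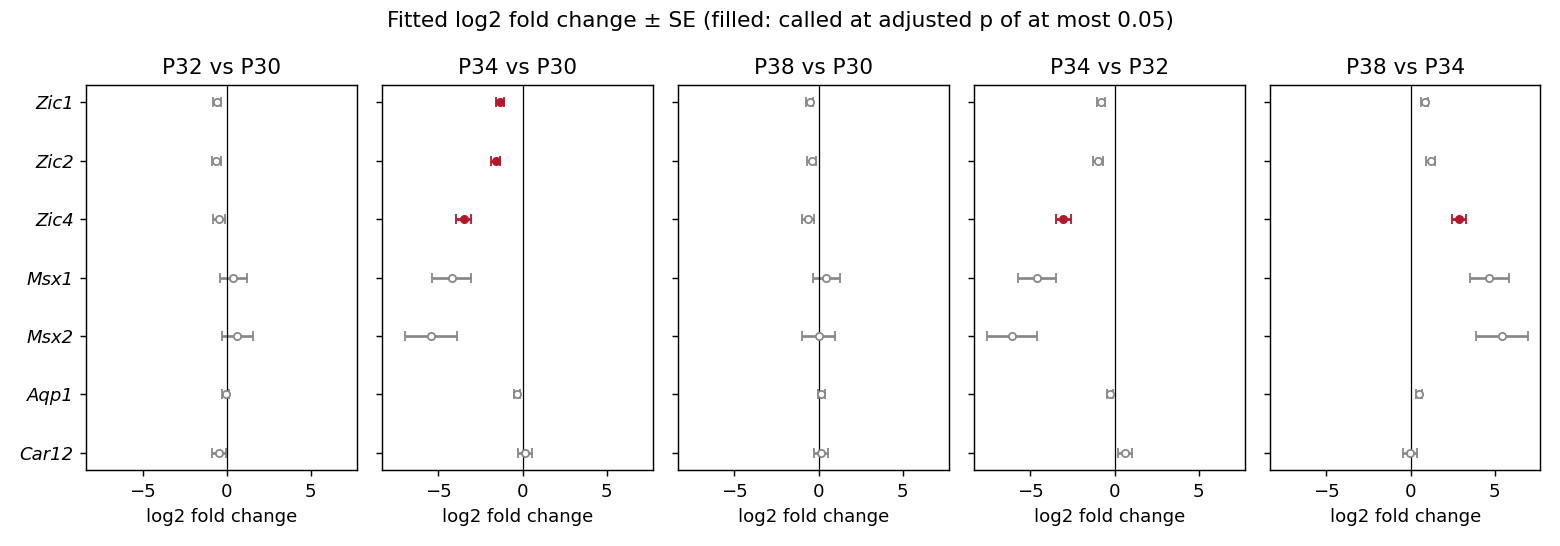
Fitted log2 fold change (x axis) ± SE of each gene (rows) in 5 comparisons, filled red where called. Zic1, Zic2 and Zic4 are filled for P34 against P30, and Zic4 alone for P34 against P32 (-3.04) and P38 against P34 (2.88).

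Of the related genes given here, edgeR called none at P34. Zic5, beside Zic2, was at -1.20 ± 0.294 (edgeR, Benjamini-Hochberg adjusted p = 0.137), and DESeq2 called it at P34 (adjusted p = 0.0384). Of the Msx family, Msx3 had 0 reads in all 12 mice. Of 8 tested aquaporins edgeR called 0 at P34 (0.66% of all genes lower), with 2 lower at an unadjusted p (5.42%) and 1 called by DESeq2 (1.9%). Mip, the lens water channel, ran from 0.663 to 2.44 CPM at P34 and 2.18 to 920 at P30. Of 14 tested carbonic anhydrases edgeR called 0, with 1 lower at an unadjusted p and 0 called by DESeq2, beside the same shares of all genes. Car2, the most abundant per length, was at 0.10 ± 0.104.

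**Figure D3:**
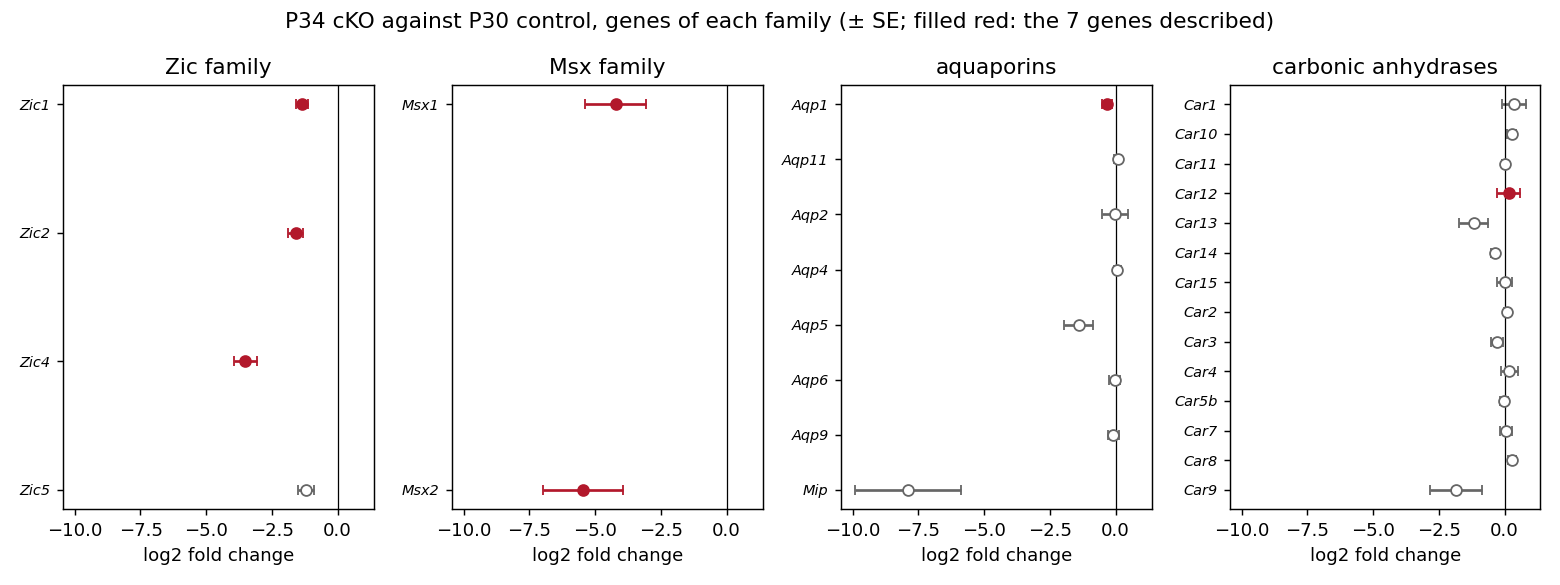
Log2 fold change ± SE at P34 against P30 (x axis) for genes (rows) of the 4 families, with Zic1, Zic2, Zic4, Msx1, Msx2, Aqp1 and Car12 filled red. The Zic genes shown lie left of 0, from -1.20 to -3.51, while the aquaporins and carbonic anhydrases other than Mip, Aqp5, Car9 and Car13 lie near 0.

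Some other genes of the ciliary epithelium and margin fell at P34 too. Of 10 listed, 9 had a row in the files and were tested, and 4 were called lower at P34 (Best2, an ion channel of the ciliary epithelium, Bmp4 and Gja1, a BMP ligand and a gap junction protein, and Otx1, a relative of Otx2). DESeq2 called 5 and 8 passed unadjusted, where 0.66% of all genes were called lower by edgeR, 1.9% by DESeq2 and 5.42% unadjusted. Their median log2 fold change was -1.67, beside -0.00134 for all genes tested. Best2 was between 0.0677 and 0.249 CPM in the P34 mice, and between 2.19 and 9.66 in the others. Summed over the list, P34 mice read 104 to 110 CPM, P30 mice 200 to 286, P32 mice 128 to 197 and P38 mice 131 to 203.

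Some markers of other tissues, which may lie in front of the retina or in and behind it, were also low at P34, part of them at other cKO ages too. Others were not called: skeletal muscle, red blood cell, endothelium and oligodendrocyte lists had median log2 fold changes of 0.84, 0.12, -0.09 and -0.40 at P34. In each of these 4 lists 0 genes passed even unadjusted. At P34, 4 of 5 tested smooth muscle genes (Acta2, Myh11, Myl9, Tagln) were called lower, with a median log2 fold change of -3.51. The 6 listed summed to 9.33 to 13.9 CPM against 29.5 to 198 at P30. At P38 the smooth muscle sums were still 16.7 to 22.7 CPM, and at P32 the highest mouse was at 48.7 and the lowest within the P34 range. Of 7 pigment cell genes 2 were called (Mlana and Tyrp1), with 6 called by DESeq2, all 7 passing unadjusted and sums of 40.3 to 56.1 against 119 to 827 CPM. Pigment cell sums were 30.8 to 118 CPM at P32 (median 94.0) and 31.0 to 134 CPM at P38 (median 107), against a median of 40.6 at P34. Of 8 lens genes 0 were called by edgeR and 7 by DESeq2, all 8 passed unadjusted, and the median log2 fold change was -5.13, at sums of 240 to 669 CPM at P34 and 459 to 34600 at P30. Fibroblast genes (5) summed to 7.55 to 28.8 CPM at P34 and 31.7 to 63.4 at P30, with 1 called (Col1a2). Surface epithelium genes (5, of which 4 were tested) summed to 0.607 to 3.09 CPM at P34 and 3.09 to 8.60 at P30. Of them 1 was called (Dsg1a), and Krt14 was at 0 in all 3 P34 mice. Col1a2 and Dsg1a were also called lower at P34 than at P32 and higher at P38 than at P34, as Zic4 was. The 6 listed genes of the anterior segment mesenchyme, which builds the iris stroma and drainage tissue, summed to 194 to 224 CPM at P34 and 174 to 197 at P30. Of the 5 tested, 0 were called by edgeR or DESeq2 and 2 were lower at an unadjusted p. No defining marker of the smooth muscle, pigment cell, lens or fibroblast lists was at 0 in all 3 P34 mice. The part of these tissues in the Zic and Msx results was not tested, and in whole-tissue RNA fewer cells of a type cannot be told apart from less RNA per cell.

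Within ages the mice low in the Msx genes were often those low in lens RNA. P30 mouse 2, with the fewest Msx reads of the controls, had lens markers at 459 CPM against 9840 and 34600 in the other controls, and P32 mouse 6 had 654 against 38200 and 29000. P38 mouse 12 was low in Msx1 at 4990 CPM of lens markers, while P38 mouse 11 had 70 Msx1 reads at 4660. For the Zic genes, P30 mouse 2, low in lens RNA, was the highest of the 12 mice in Zic1, Zic2 and Zic4, while P32 mouse 6, also low in lens RNA, was the lowest P32 mouse in all 3.

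**Figure D4:**
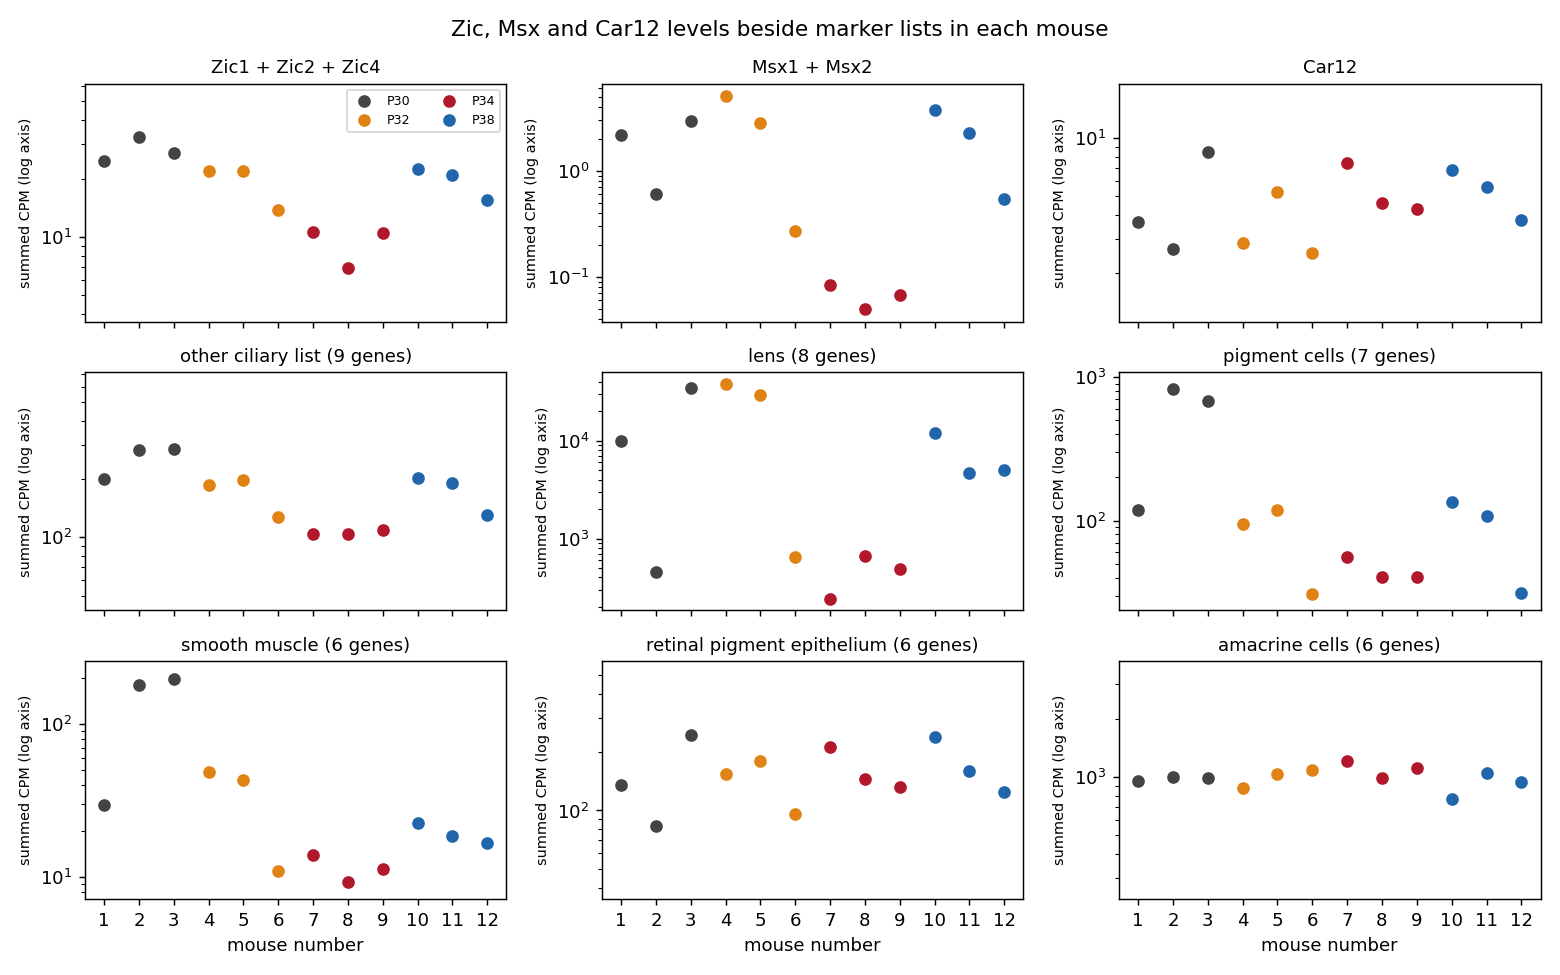
Summed CPM (log axes) in each mouse, by mouse number and colored by age, of the 3 Zic genes, the 2 Msx genes, Car12 and 6 marker lists. The P34 mice are low for the Zic and Msx genes and the other ciliary list (104 to 110 CPM), with P32 mouse 6 as low for lens and smooth muscle and P30 mouse 2 for lens, while the retinal pigment epithelium list (132 to 214 CPM) and Car12 stay in the range of the other mice.

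Car12 levels ran with those of the retinal pigment epithelium, the monolayer behind the photoreceptors, which the dissected retinas included. The pigment epithelium list (6 genes, Rpe65 among them) summed to 83.6 to 245 CPM at P30 and 132 to 214 at P34, with 0 of 6 called by edgeR, 0 by DESeq2 and 0 passing unadjusted, and a median log2 fold change of 0.07. P30 mouse 3, highest in Car12 at 8.44 CPM, was highest in this list at 245 CPM, and P30 mouse 2, lowest of the controls in Car12, was lowest in it at 83.6. By the rule for likeness (the highest Pearson r of log2 CPM over the 12 mice among 14805 genes with a mean of at least 1 CPM), the genes most like Car12 were Lrat (r = 0.969), an enzyme of the visual cycle, Rgr (0.961) and Myrf (0.918).

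For the other genes the most alike were as follows, with the same libraries behind both sides of each r. Zic1 was nearest to Emp3 (r = 0.973), Rab38 (0.971) and Ctsc (0.969), and Zic2 to Cldn1 (0.981), Otx1 (0.969) and Gfpt2 (0.961). Zic4 was nearest to Sod3 (0.982), Notum (0.982), an inhibitor of Wnt ligands, and Slc26a4 (0.980), an anion exchanger. Msx1 was nearest to Gstm2 (0.989), F2r and Tmc6 (both 0.982), and Msx2 to Sdc1 (0.981), Gsn (0.976) and Rspo1 (0.974), which enhances Wnt signals. Amacrine cell markers (6 genes), set beside Aqp1, summed to 983 to 1200 CPM at P34 and 952 to 995 at P30. Aqp1 had no near partner of that degree: Heph (0.844) and Cp (0.836), both copper-dependent ferroxidases, and Capn6 (0.825) led. None of the 7 shared a nearest gene with another, so these partners do not set Aqp1 and Car12 apart. Between members, r was 0.95 both for Zic1 with Zic2 and for Msx1 with Msx2. With the Zic and Msx genes, r was 0.40 to 0.56 for Aqp1 and -0.21 to 0.16 for Car12. No test compared the courses of the 7 with each other.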

How the data were processed

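RNA from 12 whole mouse retinas, 1 library per mouse, was analysed. Per the paper's methods and the submitters' processing notes, the authors made stranded mRNA libraries, sequenced 50 bp single reads, demultiplexed with bcl2fastq 2.17.1.14, mapped reads to mm10 with STAR 2.5.3a and counted them per gene with HTSeq 0.6.1p1. The authors deposited raw counts per gene, 1 file per mouse, without normalization.

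Groups were taken from the labels. Gene names and positions came from GENCODE M21 (GRCm38), which named 54079 of 54146 genes (99.9%), and promoter windows from a RefSeq table (GRCm38.p6), which held 6 of the 7 genes. Counts were scaled and tested with edgeR 4.0.16 in R 4.3.3 (TMM, filter on low counts, 1 quasi-likelihood fit of 12 mice with 1 mean per age, and a separate fit for all cKO mice together), with Benjamini-Hochberg adjustment over the 18628 genes tested. Standard errors were recovered from F, as the fold change in log2 units over its square root. The filter was 1 of the choices varied, as were size factors, the test (DESeq2 1.42.0), a robust fit, the mice fitted and each mouse left out. A term for Xist level was added after seeing the data. The procedure was tested on simulated counts. Totals of 29701483 to 60145034 counts limit detection to about 3 counts, or 0.0473 to 0.102 CPM, by counting error only. P-values measure the spread between single mice.

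Some related genes and markers are not reported here. The 7 genes were named for this description and all are given with each mouse's value. Other family genes are named where called, most abundant per length or set beside a result, and the 3 genes most like each by correlation. The genes and lists were chosen with earlier results of these data known, and the CCAAT letters and the mice and genes set side by side after values were seen.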

Additional observations from a re-analysis of the deposited data

Results flagged for a closer look

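The level of Zic4 differed between cKO ages by a direct test, with no controls of the later ages. The difference between P34 and P32 was -3.04 on the log2 scale and that between P38 and P34 was 2.88, and edgeR called both in the fit of 12 mice (Benjamini-Hochberg adjusted p = 0.0114 and 0.0195). With only the ages compared in the fit, the first was no longer called (adjusted p = 0.123) while the second was (0.062% and 0.396% of all genes called). In the fit of 12 mice edgeR called none of the other 6 genes in these 2 comparisons, but it called Msx1 and Msx2 in both without a filter (1.25% and 0.33% of all genes, against 0.242% and 0.199% with it), and without P32 mouse 6 it called 5 of the 7 in the first (6.87%). With Xist as a covariate it called Msx1 in the first (0.467%). DESeq2 called 5 of the 7 in the first (5.13%) and 4 in the second (0.736%), Zic4 included. All 3 P34 mice were below all P32 mice and all P38 mice. Best2 of the ciliary epithelium, Dsg1a and Col1a2 were called in the same 2 comparisons, and lens sums were low at P34 (240 to 669 CPM). Their part in the Zic4 difference was not tested.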

How the results depend on the processing

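Of 641 log2 fold changes recomputed over 20 alternatives, 576 kept direction and side of the threshold. The number of the 7 genes called lower at P34 against P30 (3) became 5 without a filter, by DESeq2, with only those ages fitted and at an unadjusted p, and ran from 1 to 4 when 1 mouse was left out. Lower at P34 against P32 (1), it became 3 without a filter, 5 by DESeq2, 0 with only those ages fitted, 2 with Xist as a covariate and 5 unadjusted, and ran from 0 to 5 without 1 mouse. Higher at P38 against P34 (1), it became 3, 4 by DESeq2 and 6 unadjusted, and ran from 0 to 1. Unadjusted counts were 2 lower at P32, 1 at P38 and 2 for all cKO mice. The cause was not tested.

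Signs turned only for uncalled changes of at most 0.638. With Xist as a covariate, Msx1 and Msx2 at P32 became -0.40 and -0.31, Msx1 at P38 -1.21, and Car12 -0.034 at P34 and -0.060 at P38. Msx2 at P38, at -0.0014, became -1.48 with Xist as a covariate and 0.0052 without a filter. Without 1 mouse, values at P32 ran from -0.20 to 0.94 for Msx1, -0.39 to 1.21 for Msx2, -0.20 to 0.11 for Aqp1 and -0.86 to 0.15 for Car12. They ran from -0.14 to 0.77 for Car12 at P34. At P38 they ran from -0.91 to 0.38 for Msx2, -0.046 to 0.33 for Aqp1 and -0.16 to 0.76 for Car12.

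The counts over all genes moved as well. Genes called lower at P34 against P30 were 123 in all, 294 without a filter, 228 with only those ages fitted, 353 by DESeq2, 1009 unadjusted and 43 without P34 mouse 8. Lower at P34 against P32 there were 45, then 425, 11, 843 and 1664 in that order. There were 87 with Xist as a covariate, 14 without P34 mouse 8 and 1310 without P32 mouse 6. Higher at P38 against P34 there were 37, with 112 without a filter, 70 with only those ages fitted, 137 by DESeq2, 560 unadjusted and 8 without P34 mouse 8. No paired analysis was possible because the mice are numbered 1 to 12 with no number shared between ages. With 3 mice an age and 0 to 3 Msx reads at P34, Msx fold changes are limited by depth as well as by the spread.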
